A study of Homo sapiens with 8 samples.

Results

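The genes described here encode the core and regulatory RNA-binding proteins of pre-mRNA splicing in SW620 cells, an established human colorectal cancer line. They were taken by name: every gene whose current symbol begins SRSF, HNRNP, SNRP, SF3A or SF3B, together with TRA2A, TRA2B, U2AF1 and U2AF2. The array carried 81 probes for 62 such genes, and 58 of them, among 10856 genes tested in all, had a probe that 2 or more of the 8 arrays detected above background (detection p-value under 0.05). These were 11 of 12 SR protein genes, 23 of 25 hnRNP genes, 11 of 12 genes of snRNP proteins, 9 of 9 genes of the SF3A and SF3B complexes, and all 4 TRA2 and U2AF genes. HNRNPCL1, HNRNPH1, SNRPN and SRSF12 were detected on 0 arrays and were not tested. HNRNPA1P10, HNRNPA1P33 and HNRNPA3P1 are annotated as pseudogenes, and with HNRNPA1L2 they closely resemble HNRNPA1 or HNRNPA3, so which gene such a probe reads is uncertain. SNRPE, detected on 5 of 8 arrays, was the only tested member whose probe was not detected on all 8.

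Total RNA was hybridised to Illumina bead arrays of 1 colour, 2 arrays for each of 4 groups of wild-type SW620 cells kept for 24 h. Untreated cells stand against cells given 4 uM Y15, a compound that inhibits the tyrosine kinase FAK. Cells transfected with siRNA against HAS3, a hyaluronan synthase gene, stand against cells transfected with a scrambled control sequence, and the scrambled group is also set here against untreated cells. The labels do not say whether the arrays of a group came from separate cultures, so the spread behind each p-value may be technical.

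Values are normalised log2 intensities, and a gene passed a comparison at a limma adjusted p under 0.05 over all 10856 genes (two-sided, n = 2 arrays per group). Mean raw intensity was between 352 and 525 on 7 arrays and 234 on Y15 replicate 2, and 12578 to 13916 of 24526 probes were detected per array. Pearson's r across the 10856 genes tested was 0.990 to 0.996 within groups and 0.948 to 0.986 between groups. HAS3 itself read 9.89 ± 0.23 with HAS3 siRNA and 10.32 ± 0.23 with scrambled (mean ± SD, n = 2), a difference of -0.43 ± 0.17 (SE) that did not pass (adjusted p = 0.151). In untreated cells it read 9.41 ± 0.12, a level that the scrambled arrays exceeded 1.88-fold (adjusted p = 0.00329) and above which both HAS3 siRNA arrays also lay. These arrays do not by themselves show the knockdown at the transcript. Markers of colon epithelium were present: EPCAM, KRT8, KRT18, CDX2, VIL1 and CDH1 were detected on 8 of 8 arrays. KRT20 and CDX1 were detected on 0, however, and CDH17 on 3, with group means of 4.44 to 5.06. CDX2 read 8.91 untreated and 6.78 with Y15 (log2 fold change -2.14; adjusted p = 1.64e-06), and VIL1 (-0.65) and KRT8 (-0.46) also passed lower there, while CDH1 (-1.80) and CDX2 (-1.07) passed lower with HAS3 siRNA. Of the markers of other cell types, COL1A2, COL3A1, PTPRC, CD3E and CDH5 were detected on 0 arrays, DCN on 1, LYZ on 3, VWF on 4, COL1A1 on 5, CD14 and LUM on 6, and PECAM1 on 8. Those tested had group means of 4.67 to 5.79, near background. VWF (0.58; adjusted p = 0.00667) and CD14 (0.42; adjusted p = 0.0295) passed higher with Y15, and CD14 passed lower in scrambled cells against untreated ones (-0.50; adjusted p = 0.027). LUM passed higher in that comparison (0.89; adjusted p = 0.00175) and lower with HAS3 siRNA (-0.57; adjusted p = 0.0289). Of the colon markers, VIL1 passed higher (0.53, limma adjusted p = 0.032) and CDH1 lower (-0.44, adjusted p = 0.0468) in scrambled cells against untreated ones. The part of all these markers in the results below was not tested.

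Splicing is carried out by the spliceosome, in which small nuclear RNAs are bound by a ring of Sm proteins and by proteins of their own. U1 snRNP marks the start of an intron, U2AF marks its end, and U2 snRNP, held by the SF3A and SF3B complexes, marks the branch point. SR proteins, which carry a domain rich in arginine and serine that CLK and SRPK kinases phosphorylate, mostly bind exons and promote their inclusion, while many hnRNP proteins oppose them, and the balance of both families helps set which exons a cell keeps. Several SR, TRA2 and hnRNP genes limit their own protein through exons that send their transcripts to nonsense-mediated decay.

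Promoters of the SF3B and U2 snRNP genes called with Y15, with those of the SR genes that rose and fell most, are shown first so that genes that moved alike can be set side by side. Promoter sequence from RefSeq (GRCh38.p14), the 250 bases before the annotated start, was matched for 50 of the 58 genes and searched on both strands for 6 motifs. They were CCGGAA, the core of sites bound by factors of the ETS family, and CCAAT, the box bound by the factor NF-Y. The E-box of basic helix-loop-helix factors is CACGTG, and the cyclic AMP response element (CRE) is TGACGTCA. The site of the AP-1 factors is TGANTCA, and the heat shock element was searched as GAANNTTC. A stretch that meets more than 1 motif counts for each, and a promoter with several matches counts once. The ETS core was found in 6 of 8 SF3 promoters (75%), 7 of 10 snRNP promoters (70%), 5 of 19 hnRNP promoters (26.3%) and 2 of 10 SR promoters (20%). Among 8959 promoters of the genes tested 24.9% held it, and 14.8% of 27305 promoters of all genes in the table. CCAAT stood in 13 of 19 hnRNP promoters (68.4%), against 35.9% of the genes tested, and the E-box in 6 of 19 (31.6%), against 9.02%. The other 3 motifs were rare in every family, with the CRE in 0 of 50. The 4 SF3B and 2 U2 snRNP genes that rose with Y15 do not share any 1 of these motifs. SF3B2 holds 3 ETS cores, SF3B6 4, SNRPB2 3 and SNRPA1 1, while SF3B5, which rose most of the SF3B genes, and SF3B1 hold 0. Of the called SR genes SRSF4, which rose, holds 1 and SRSF5, which fell, holds 2, and SRSF6, SRSF9 and SRSF11 hold 0. The sequences are printed 5′ to 3′ on the gene's strand with the ETS core or its reverse complement in capitals, and a match of letters does not show that a factor binds.
SF3B1, chr2:197435029-197435278, minus strand: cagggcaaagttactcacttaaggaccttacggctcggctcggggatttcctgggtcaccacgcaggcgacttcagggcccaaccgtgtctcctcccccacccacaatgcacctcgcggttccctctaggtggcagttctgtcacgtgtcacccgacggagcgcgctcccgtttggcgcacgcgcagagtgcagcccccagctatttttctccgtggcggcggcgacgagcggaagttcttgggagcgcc
SF3B2, chr11:66052114-66052363, plus strand: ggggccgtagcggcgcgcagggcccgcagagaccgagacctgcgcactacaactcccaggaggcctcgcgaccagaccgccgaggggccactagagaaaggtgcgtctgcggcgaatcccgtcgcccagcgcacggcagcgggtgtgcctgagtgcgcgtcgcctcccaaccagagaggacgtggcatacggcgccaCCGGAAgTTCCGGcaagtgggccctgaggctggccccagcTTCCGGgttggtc
SF3B5, chr6:144095574-144095823, minus strand: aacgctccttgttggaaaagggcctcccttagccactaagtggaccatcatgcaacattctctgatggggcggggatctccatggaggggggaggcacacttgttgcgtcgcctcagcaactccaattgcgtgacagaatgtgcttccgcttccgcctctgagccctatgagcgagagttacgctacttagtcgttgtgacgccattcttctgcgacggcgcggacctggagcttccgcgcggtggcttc
SF3B6, chr2:24076327-24076576, minus strand: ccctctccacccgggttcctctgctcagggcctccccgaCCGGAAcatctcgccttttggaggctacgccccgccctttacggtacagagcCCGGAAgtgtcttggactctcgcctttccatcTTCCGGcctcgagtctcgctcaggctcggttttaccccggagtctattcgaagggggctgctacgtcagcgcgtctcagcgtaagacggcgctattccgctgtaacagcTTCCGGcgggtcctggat
SNRPA1, chr15:101295249-101295498, minus strand: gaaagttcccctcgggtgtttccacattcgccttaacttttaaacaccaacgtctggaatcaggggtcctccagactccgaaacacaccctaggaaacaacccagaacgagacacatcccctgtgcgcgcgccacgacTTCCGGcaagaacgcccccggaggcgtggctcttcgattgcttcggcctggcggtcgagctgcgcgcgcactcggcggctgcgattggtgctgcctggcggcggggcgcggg
SNRPB2, chr20:16729776-16730025, plus strand: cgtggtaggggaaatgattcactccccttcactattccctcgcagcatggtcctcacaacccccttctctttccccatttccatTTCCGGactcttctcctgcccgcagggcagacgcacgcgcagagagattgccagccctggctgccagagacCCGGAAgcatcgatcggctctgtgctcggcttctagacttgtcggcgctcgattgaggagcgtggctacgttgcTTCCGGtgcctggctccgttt
SRSF4, chr1:29181901-29182150, minus strand: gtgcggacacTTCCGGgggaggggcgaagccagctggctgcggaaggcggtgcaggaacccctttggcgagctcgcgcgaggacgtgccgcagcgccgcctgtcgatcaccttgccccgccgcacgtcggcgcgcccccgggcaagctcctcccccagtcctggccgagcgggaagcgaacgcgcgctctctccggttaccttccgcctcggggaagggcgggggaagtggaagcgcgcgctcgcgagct
SRSF5, chr14:69766892-69767141, plus strand: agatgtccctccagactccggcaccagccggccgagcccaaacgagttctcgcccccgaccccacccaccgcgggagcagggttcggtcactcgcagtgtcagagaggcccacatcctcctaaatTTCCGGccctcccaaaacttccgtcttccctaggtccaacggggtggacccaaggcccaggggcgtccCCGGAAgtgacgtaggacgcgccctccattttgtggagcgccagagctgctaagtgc

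With Y15, members were called in both directions. All 6 SF3B genes read higher and 4 of them passed. All 6 also read higher in scrambled cells against untreated ones, where 1 passed. Both proteins specific to U2 snRNP rose with Y15. With quantile normalisation the Sm ring did not pass at any of its 7 genes. SR and hnRNP genes passed in both directions, with SRSF5 and HNRNPM falling and SRSF4 rising. In all 19 of the 58 members passed (32.8%), 11 higher and 8 lower, while 41.8% of all genes tested passed, so the family as a whole was not called more often than other genes. The median log2 fold change was -0.0012 over the members and -0.03 over all genes. In these bulk samples a change in the share of cells and a change in RNA per cell cannot be told apart. The split between higher and lower depends on scaling: centring each array on the median of all its probes moved the median of all genes to -0.31 and gave 0 higher and 15 lower members, and centring on the detected probes moved it to 0.19 and gave 14 higher and 3 lower. Directions below are from quantile normalisation, and family medians are given beside the median of all genes. Leaving out any 1 of the 8 arrays lowered the count of members passing, most of all without untreated replicate 1. The share of all genes passing fell each time as well. Without Y15 replicate 2, the dimmest array, the members' median was 0.0067 against -0.0456 over all genes. Without untreated replicate 1 these were -0.0113 and -0.0392.

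**Figure D1:**
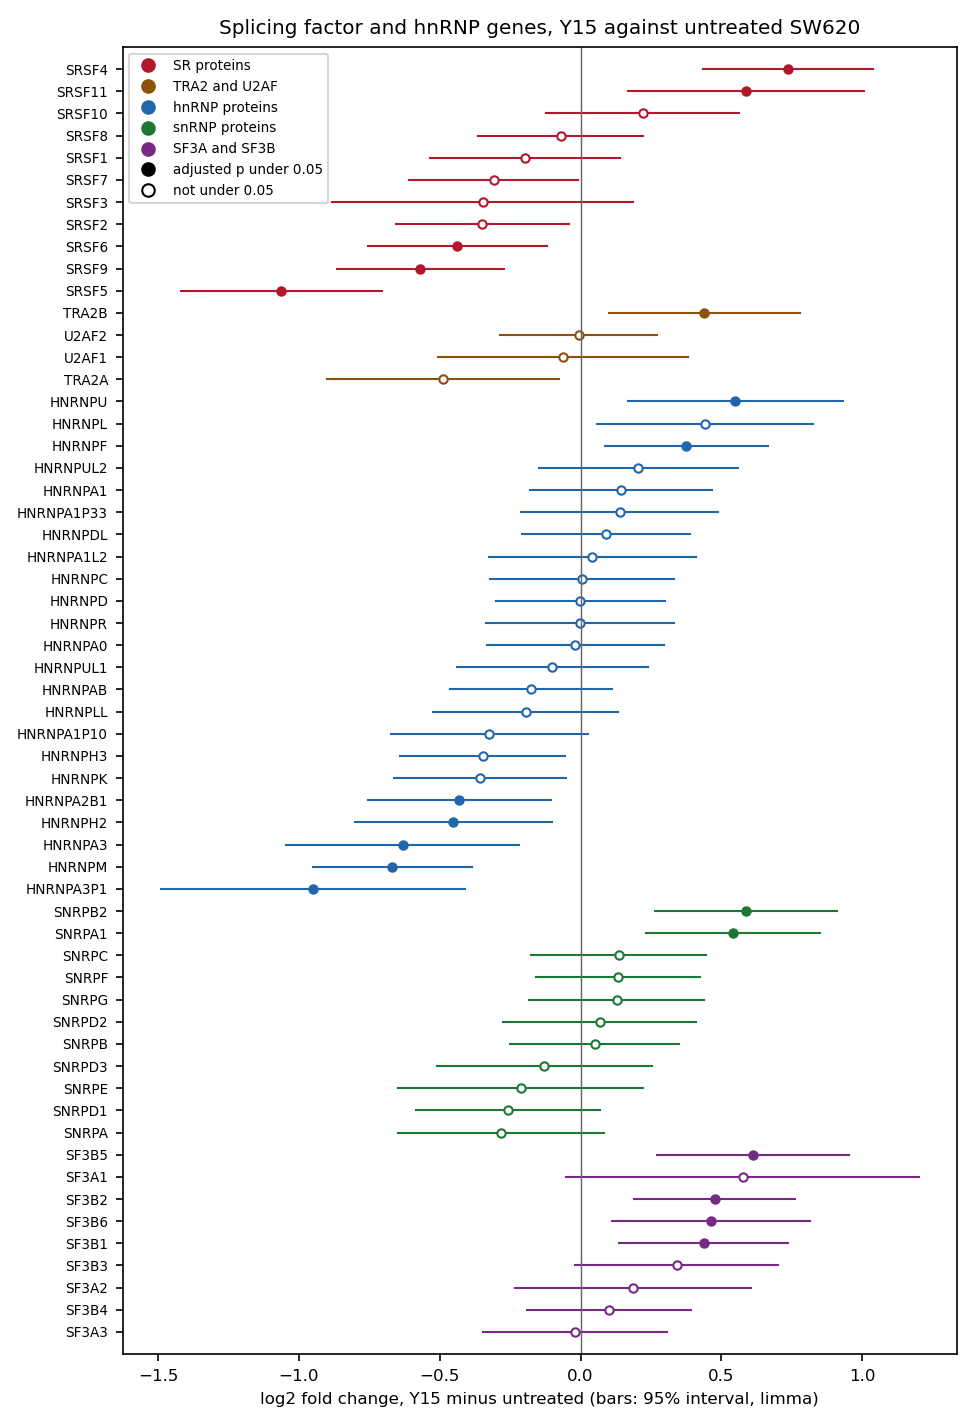
Log2 fold change of each of the 58 member genes, Y15 minus untreated (horizontal axis), with 95% intervals from limma (n = 2 arrays per group), grouped and coloured by family; filled points passed at an adjusted p under 0.05. SRSF5 lies lowest at -1.06 and SRSF4 highest at 0.74, and the filled SF3 and snRNP points all lie above 0, which with median centring over all probes they do not keep: 0 SF3 genes then pass.

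Among SR proteins, 3 of 11 genes fell and 2 rose, shares near those of all genes tested (23% lower and 18.8% higher). The family median of -0.31 lay below the -0.03 of all genes. The median stayed below that of all genes under both centrings (-0.45 against -0.31, and 0.05 against 0.19), though its sign turned under the latter. SRSF5, an SR protein with a pair of RNA-recognition domains, read 11.72 and 11.82 on the untreated arrays, 10.50 and 10.91 with Y15, 11.19 and 11.48 with scrambled and 11.59 and 11.53 with HAS3 siRNA. Both Y15 arrays lay below all 6 others, and the gene fell 2.09-fold (log2 fold change -1.06 ± 0.16, SE; 95% interval -1.42 to -0.70; limma adjusted p = 0.000352). A second SRSF5 probe also passed, at -0.92 (adjusted p = 0.000519). SRSF9, an SR protein with a short arginine- and serine-rich tail, read 12.75 and 12.74 untreated and 12.23 and 12.11 with Y15, below the scrambled (12.62 and 12.67) and HAS3 siRNA arrays (12.57 and 12.79) as well. It fell 1.48-fold (-0.57 ± 0.14; adjusted p = 0.0054).

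SRSF6, built like SRSF5 and SRSF4, was at 11.60 and 11.83 untreated and 11.35 and 11.20 with Y15. The groups did not overlap, and the fall of 1.35-fold passed (adjusted p = 0.0299) but was lost without untreated replicate 2 (adjusted p = 0.168) or without Y15 replicate 2 (adjusted p = 0.138). SRSF4 moved the other way, from 10.45 and 10.33 untreated to 11.13 and 11.12 with Y15, a rise of 1.67-fold (0.74 ± 0.14; adjusted p = 0.00127). The scrambled (11.14 and 10.92) and HAS3 siRNA arrays (11.32 and 11.19) stood at about the height of the Y15 arrays. A low untreated pair and separate rises with Y15 and with transfection cannot be told apart. SRSF11, an SR-related protein that contacts U1 snRNP and U2AF components, read 7.22 and 7.46 untreated and 7.86 and 7.996 with Y15 (log2 fold change 0.59 ± 0.19; adjusted p = 0.028). Its call was lost without untreated replicate 1 (adjusted p = 0.161) or without Y15 replicate 2 (adjusted p = 0.0993). The calls for SRSF5, SRSF9 and SRSF4 held with any 1 of the 8 arrays left out. With median centring over all probes SRSF4 and SRSF11 no longer passed. With centring on the detected probes SRSF9 (-0.23; adjusted p = 0.299) and SRSF6 (-0.26; adjusted p = 0.263) did not. SRSF6 was also lost in a fit of the 4 arrays alone (adjusted p = 0.0706) and SRSF11 with no detection filter (adjusted p = 0.0756), while SRSF5 passed under all 12 settings that kept every array of the comparison.

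The other 6 SR genes did not pass. SRSF2, a marker of nuclear speckles, had a log2 fold change of -0.35 (95% interval -0.66 to -0.04), SRSF7 of -0.31 (-0.61 to -0.01) and SRSF1, the best-studied SR protein and an oncogene when overexpressed, of -0.20 (-0.53 to 0.14). SRSF3 was near background, with untreated arrays as far apart as 4.81 and 5.74, and its interval of -0.88 to 0.19 says little. SRSF10 read 0.22 ± 0.16 and SRSF8 -0.07 ± 0.13 (log2 fold change ± SE).

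The TRA2 genes encode SR-like activators that bind purine-rich exons, and TRA2B passed while TRA2A did not. TRA2B read 10.91 and 11.20 untreated and 11.52 and 11.47 with Y15, and rose 1.35-fold (adjusted p = 0.0396), a call lost without untreated replicate 1, Y15 replicate 1, Y15 replicate 2, HAS3 siRNA replicate 1 or HAS3 siRNA replicate 2 (adjusted p from 0.0563 to 0.238). It was also lost with median centring over all probes (adjusted p = 0.79), cyclic loess (adjusted p = 0.0515), no detection filter (adjusted p = 0.0566) and the 4 arrays alone (adjusted p = 0.0729). TRA2A read 10.02 and 9.63 untreated and 9.27 and 9.40 with Y15, with both Y15 arrays the lower, and missed the threshold (log2 fold change -0.49 ± 0.19; adjusted p = 0.0566). U2AF1, which reads the last bases of the intron, had -0.06 ± 0.20 (adjusted p = 0.833). U2AF2, its partner on the pyrimidine tract, had -0.01 ± 0.13 (95% interval -0.29 to 0.27) by the probe used, while a second, dimmer U2AF2 probe rose by 0.77 (adjusted p = 0.00867), so Y15 has no settled direction for U2AF2 on this array.

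**Figure D2:**
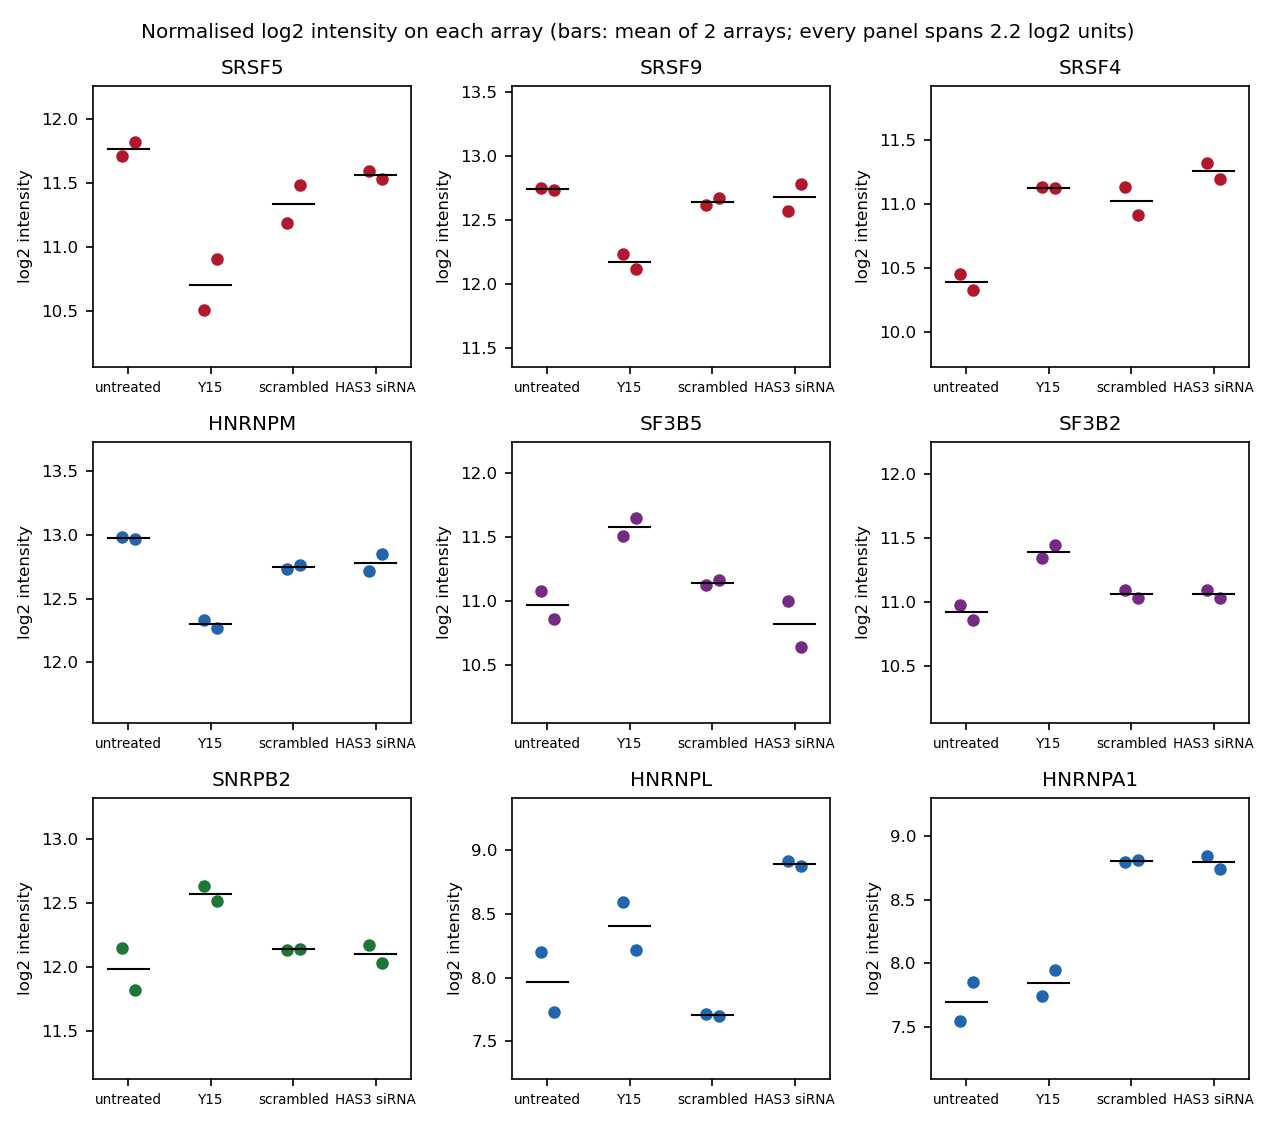
Normalised log2 intensity (vertical axis, 2.2 log2 units in every panel) of 9 member genes on each of the 8 arrays; points are arrays and bars are means of 2 arrays. SRSF5, SRSF9 and HNRNPM are lowest on both Y15 arrays, SF3B5, SF3B2 and SNRPB2 are highest there, HNRNPL is highest on both HAS3 siRNA arrays, and HNRNPA1 is high on all 4 transfected arrays.

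Among hnRNP genes 5 of 23 fell with Y15, a share near the 23% of all genes called lower, and 2 rose, below the 18.8% of all genes called higher, with a median of -0.02. HNRNPM, which binds GU-rich RNA and regulates exons of the epithelial-mesenchymal switch such as those of CD44, read 12.98 and 12.96 untreated, 12.34 and 12.27 with Y15, 12.73 and 12.76 with scrambled and 12.72 and 12.85 with HAS3 siRNA. Both Y15 arrays lay below the 6 others, and the fall was 1.59-fold (-0.67 ± 0.13, SE; adjusted p = 0.00155), a call that held with any 1 array left out but not with centring on the detected probes (-0.30; adjusted p = 0.155). A much dimmer second HNRNPM probe had -0.39 and did not pass (adjusted p = 0.192). HNRNPA3, a relative of HNRNPA1 and HNRNPA2B1, read 8.59 and 8.33 untreated and 7.54 and 8.11 with Y15, and fell 1.55-fold (adjusted p = 0.0188). The call was lost without untreated replicate 1 (adjusted p = 0.125) or without Y15 replicate 1 (adjusted p = 0.145), and with no detection filter (adjusted p = 0.0558). The pseudogene HNRNPA3P1 fell with its parent, from 6.60 and 5.69 to 5.41 and 4.99 (-0.95 ± 0.25; adjusted p = 0.00901), and its call was lost without untreated replicate 1 (adjusted p = 0.0925) or without Y15 replicate 2 (adjusted p = 0.0538), and with centring on the detected probes (adjusted p = 0.12). Its Y15 readings were near background, and its probe was not kept when detection at 0.01 on 8 of 8 arrays was required. Whether the HNRNPA3P1 probe reads the pseudogene or HNRNPA3 was not tested.

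HNRNPA2B1, which sorts and stabilises RNAs and binds sites of methylated adenosine, read 13.05 and 13.21 untreated and 12.57 and 12.83 with Y15, a fall of 1.35-fold (adjusted p = 0.036). HNRNPH2, a binder of runs of guanosine, fell 1.37-fold (adjusted p = 0.0394), and its relative HNRNPF rose 1.3-fold, from 8.04 and 8.21 to 8.45 and 8.56 (adjusted p = 0.0394). These 3 calls were lost in more of the leave-outs than the other 4 hnRNP calls. That of HNRNPA2B1 was lost without untreated replicate 2, Y15 replicate 1, scrambled replicate 1 or scrambled replicate 2 (adjusted p from 0.0566 to 0.183). That of HNRNPH2 was lost without untreated replicate 1, untreated replicate 2, Y15 replicate 1, HAS3 siRNA replicate 1, HAS3 siRNA replicate 2, scrambled replicate 1 or scrambled replicate 2 (adjusted p from 0.0511 to 0.265). That of HNRNPF was lost without untreated replicate 1, Y15 replicate 2, HAS3 siRNA replicate 1, HAS3 siRNA replicate 2, scrambled replicate 1 or scrambled replicate 2 (adjusted p from 0.0542 to 0.186). Scaling turned the sign of HNRNPA2B1, which read 0.03 when arrays were centred on the detected probes, and of HNRNPF, which read -0.14 when they were centred on all probes. HNRNPH2 passed lower under both centrings. HNRNPA2B1 was also lost with centring over all probes (adjusted p = 0.121) and cyclic loess (adjusted p = 0.0772), HNRNPF with centring on the detected probes (adjusted p = 0.0701) and HNRNPH2 with no detection filter (adjusted p = 0.0628). All 3 were lost in a fit of the 4 arrays alone (adjusted p from 0.0795 to 0.103).

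HNRNPU, a scaffold protein that ties chromatin and RNA to the nuclear matrix, has no settled direction. The probe used read 7.34 and 7.12 untreated and 7.94 and 7.61 with Y15, a log2 fold change of 0.55 ± 0.18 (adjusted p = 0.0248). The second HNRNPU probe, listed under another transcript, fell by 1.10 (adjusted p = 8.95e-05). Leaving out untreated replicate 2 ended the call (adjusted p = 0.143), and leaving out Y15 replicate 1 or 2 made the second probe the brighter one, so that HNRNPU then read -1.09 or -1.13. The call was also lost under both centrings (adjusted p = 0.954 over all probes and 0.0532 on the detected probes) and with no detection filter (adjusted p = 0.0577). HNRNPC, which covers uridine tracts, was flat by the probe used (0.01 ± 0.15; adjusted p = 0.982), while its second probe rose by 0.69 (adjusted p = 0.00944). The other 16 hnRNP genes did not pass, and lay between -0.36 (HNRNPK, adjusted p = 0.0586) and 0.44 (HNRNPL, adjusted p = 0.0626). HNRNPA1 was among them, at 0.14 ± 0.15. Of the other members with another detected probe, SRSF5, SNRPB2 and SF3B1 passed in the same direction by both.

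The SF3A and SF3B complexes bind U2 snRNP at the branch point, and with Y15 4 of 6 SF3B genes passed higher and 0 lower, where 18.8% of all genes passed higher. The median log2 fold change of the 6 was 0.45, against -0.03 over all genes. SF3B5, its smallest component, read 11.08 and 10.86 untreated and 11.51 and 11.65 with Y15, above the scrambled (11.12 and 11.16) and HAS3 siRNA arrays (11.002 and 10.64). It rose 1.53-fold (0.61 ± 0.16, SE; adjusted p = 0.00788). SF3B2 read 10.98 and 10.86 untreated and 11.34 and 11.44 with Y15, again above all 6 other arrays, and rose 1.39-fold (adjusted p = 0.0118). SF3B1, the large subunit that clamps the branch site and is mutated in several cancers, read 10.42 and 10.59 untreated and 10.88 and 11.004 with Y15, and rose 1.35-fold (adjusted p = 0.0234). The scrambled (10.79 and 10.81) and HAS3 siRNA arrays (10.88 and 10.70) reached close to the lower Y15 array. The second, dimmer SF3B1 probe rose by 0.59 with Y15 (adjusted p = 0.011). SF3B6 read 9.33 and 9.51 untreated and 9.68 and 10.08 with Y15, and rose 1.38-fold (adjusted p = 0.0372). Its scrambled (9.64 and 9.51) and HAS3 siRNA arrays (9.47 and 9.67) also reached close to the lower Y15 array.

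SF3B3 (0.34 ± 0.16) and SF3B4 (0.10 ± 0.13) did not pass. Nor did any of the 3 SF3A genes: SF3A1 was dim and uneven, at 5.15 and 4.92 untreated and 6.10 and 5.12 with Y15, SF3A2 had 0.19 ± 0.19 and SF3A3 -0.02 ± 0.15. The SF3B calls rest on few arrays. SF3B5 was lost without untreated replicate 2 (adjusted p = 0.0595). SF3B2 was lost without untreated replicate 2 (adjusted p = 0.063) or without Y15 replicate 2 (adjusted p = 0.0596). SF3B1 was lost without untreated replicate 1 (adjusted p = 0.125) or without Y15 replicate 2 (adjusted p = 0.103). SF3B6 was lost without untreated replicate 1, untreated replicate 2, Y15 replicate 2, HAS3 siRNA replicate 2, scrambled replicate 1 or scrambled replicate 2 (adjusted p from 0.0502 to 0.259), and with no detection filter (adjusted p = 0.0613). A fit of the 4 arrays alone lost SF3B1 (adjusted p = 0.0644) and SF3B6 (adjusted p = 0.0825). Over the leave-outs, SF3A and SF3B together had 1 to 6 genes passing higher and 0 lower, with 1 without untreated replicate 2, 6 without Y15 replicate 1, and 2 without untreated replicate 1 or Y15 replicate 2. Relative to the untreated means, the median over the 9 genes was 0.27 on Y15 replicate 1 and 0.50 on Y15 replicate 2. The joint median of 0.44 stayed above that of all genes under both centrings, at -0.0022 against -0.31 and at 0.50 against 0.19, but with centring over all probes 0 of 9 passed.

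Of the snRNP genes, the pair specific to U2 rose. SNRPB2 (the U2 B″ protein) read 12.15 and 11.82 untreated, 12.63 and 12.52 with Y15, 12.13 and 12.15 with scrambled and 12.17 and 12.04 with HAS3 siRNA. The Y15 arrays stood above the 6 others, and the rise was 1.5-fold (0.59 ± 0.15, SE; adjusted p = 0.00733). A second SNRPB2 probe rose by 0.99 (adjusted p = 0.000259). SNRPA1 (U2 A′), its partner on the U2 RNA, read 11.78 and 11.89 untreated and 12.27 and 12.48 with Y15, and rose 1.46-fold (adjusted p = 0.00926). Scrambled arrays of SNRPA1 read 12.07 and 11.89 and HAS3 siRNA arrays 12.13 and 12.26, the last close to the lower Y15 array. SNRPB2 was lost without untreated replicate 2 (adjusted p = 0.0641), and SNRPA1 without untreated replicate 1 (adjusted p = 0.0548) or without Y15 replicate 2 (adjusted p = 0.0605); with median centring over all probes neither passed (adjusted p = 0.218 and 0.305). The U1 proteins did not pass: SNRPA had -0.28 ± 0.17 and SNRPC 0.14 ± 0.14. The 7 Sm ring genes, SNRPB, SNRPD1, SNRPD2, SNRPD3, SNRPE, SNRPF and SNRPG, lay between -0.26 and 0.13, with 0 called and 0 at an unadjusted p under 0.05 by limma. With centring on the detected probes, however, 6 of 11 snRNP genes passed higher and 0 lower. That is more than the 4 genes outside the Sm ring, so Sm ring genes were among them. With centring over all probes 0 of the 11 passed higher and 2 lower. Whether Sm ring genes pass thus depends on scaling. The U2-specific genes and the Sm ring genes were not tested against each other.

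Other genes of the splicing pathway, grouped by role, were also called in both directions with Y15. Of 7 SR kinase genes 3 rose and 1 fell, led by CLK1, from 5.67 and 6.06 to 7.54 and 7.40 (3.04-fold; adjusted p = 2.72e-05), and CLK3, from 8.17 and 7.98 to 9.19 and 9.28 (2.24-fold; adjusted p = 0.000118). Both kinases phosphorylate SR proteins. CLK1 also passed higher in scrambled cells against the same untreated arrays (log2 fold change 0.75, limma adjusted p = 0.011). CLK3 did not pass there (0.19, limma adjusted p = 0.429). Of 9 further proteins with arginine- and serine-rich domains 5 rose and 0 fell, among them the nuclear speckle protein PNN (1.98-fold; adjusted p = 0.000101) and RBM39, a U2AF-like factor (2.11-fold; adjusted p = 0.00508). Prp19 complex and catalytic step genes had 7 rises and 1 fall among 21, including SLU7 (1.92-fold), which acts in the second catalytic step, and BUD31 (1.72-fold). PHF5A, a further SF3B subunit that the naming rule leaves out, rose 1.58-fold (adjusted p = 0.00477) in a group of other U1, U2 and minor spliceosome factors with 5 rises and 4 falls among 17, where ZCRB1 of the minor spliceosome fell 1.98-fold.

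The U4/U6.U5 tri-snRNP and LSM group had 6 rises and 5 falls among 23, with the cyclophilin PPIH up 1.77-fold and the U5 protein TXNL4A down 1.55-fold. TXNL4A was near background, with means of 5.68 untreated and 5.05 with Y15. Of 25 RNA-binding splicing regulators 10 fell, 3 rose and 12 were not called, with TAF15 down 2.16-fold. CELF1 moved most of all genes named here, from 7.33 and 7.45 untreated to 10.14 and 10.07 with Y15 (up 6.57-fold, limma adjusted p = 1.43e-07). It also passed higher in scrambled cells against the same untreated arrays, at 8.48 and 8.21 (log2 fold change 0.96, limma adjusted p = 0.00106). Exon junction and nonsense-mediated decay genes had 2 rises and 2 falls among 10, with the decay kinase SMG1 up 1.74-fold and MAGOHB down 1.74-fold. The groups were drawn from general knowledge and their counts stand beside 18.8% of all genes higher and 23% lower.

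**Figure D3:**
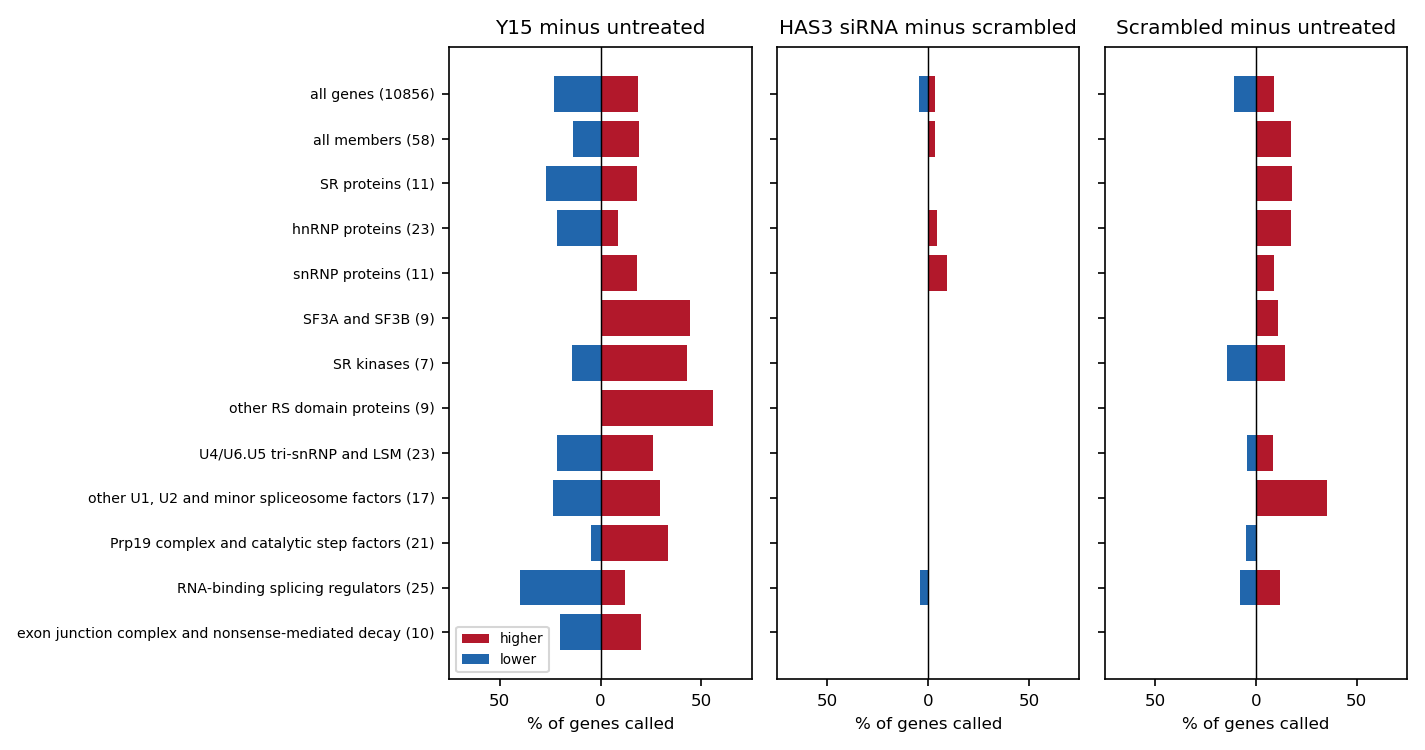
Share of tested genes that passed at an adjusted p under 0.05 (horizontal axis, %), higher to the right in red and lower to the left in blue, for all genes, the members, their families and 7 groups of other splicing genes, with the number tested in brackets. With Y15 the SF3 bar (44.4%) lies wholly to the right, as does that of other RS domain proteins (55.6%); the SF3 bar is empty when arrays are centred on the median of all probes.

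HAS3 siRNA against the scrambled control moved very few of these genes. HNRNPL and SNRPF passed, both higher, which is 2 of 58 members (3.45%) where 8.22% of all genes tested passed, 3.47% higher and 4.74% lower; 9 members had an unadjusted p under 0.05. HNRNPL, which binds CA repeats and regulates among others its own transcript, read 7.71 and 7.70 with scrambled and 8.91 and 8.87 with HAS3 siRNA, while untreated cells read 8.20 and 7.73 and Y15 cells 8.59 and 8.22. The HAS3 siRNA arrays were thus the highest of the 8 and the scrambled arrays the lowest, and the rise was 2.27-fold (1.19 ± 0.18, SE; 95% interval 0.80 to 1.57; adjusted p = 0.00155). The call held with any 1 array left out and under all 12 settings that kept every array of the comparison. SNRPF, an Sm ring protein, read 12.59 and 12.38 with scrambled and 13.002 and 13.02 with HAS3 siRNA, and rose 1.44-fold (adjusted p = 0.0317). It was lost without HAS3 siRNA replicate 1, HAS3 siRNA replicate 2, scrambled replicate 1 or scrambled replicate 2 (adjusted p from 0.0745 to 0.31), with median centring over all probes (adjusted p = 0.378) or on the detected probes (adjusted p = 0.41), and with cyclic loess (adjusted p = 0.0662).

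None of the 11 SR genes passed with HAS3 siRNA, though 3 had an unadjusted p under 0.05 and their median was 0.13, against 0.01 over all genes. The 9 SF3 genes had a median of -0.08 with 0 called. SF3A2 read 10.62 and 10.77 with scrambled and 9.92 and 10.18 with HAS3 siRNA, with no overlap, and missed the threshold (-0.64 ± 0.19; adjusted p = 0.065). HNRNPA3 also missed it (-0.58 ± 0.19; adjusted p = 0.0873). The TRA2 and U2AF genes had log2 fold changes of -0.23 (TRA2A), -0.09 (TRA2B), 0.29 (U2AF1) and 0.01 (U2AF2), with 0 called. Among the other splicing genes PSPC1, a paraspeckle protein, was the only gene called: it read 8.51 and 8.48 with scrambled and 7.76 and 8.05 with HAS3 siRNA (log2 fold change -0.59 ± 0.15; adjusted p = 0.026).

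Set against untreated cells, the scrambled control moved more members than HAS3 siRNA did against scrambled, all of them upward by the probes used. With the mean of probes, and with second probes, 11 members passed higher and 1 lower. Of the 58, 10 were higher (17.2%) and 0 lower, where 19.5% of all genes passed, 8.84% higher and 10.7% lower. The members' median was 0.19, against 0.0013 over all genes. By family it was 0.27 for hnRNP, 0.26 for SF3, 0.18 for TRA2 and U2AF, 0.15 for snRNP and -0.03 for SR genes. All 9 SF3 genes read higher. HNRNPA1, among the most abundant nuclear hnRNPs and a promoter of exon skipping, read 7.55 and 7.85 untreated, 7.74 and 7.95 with Y15, 8.79 and 8.81 with scrambled and 8.84 and 8.74 with HAS3 siRNA. All 4 transfected arrays lay above all 4 others, and the rise in scrambled cells was 2.15-fold (1.10 ± 0.15, SE; adjusted p = 0.000582). It held with any 1 array left out. The second HNRNPA1 probe read 0.46 higher and did not pass (adjusted p = 0.0658). Nor did the genes that resemble HNRNPA1: HNRNPA1P10 read -0.08, HNRNPA1P33 0.33 and HNRNPA1L2 -0.30 (limma adjusted p = 0.778, 0.17 and 0.242). In untreated cells the 2 pseudogene probes were brighter, at 11.11 and 11.14, than the HNRNPA1 probe used. Which gene these probes read was not tested.

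HNRNPC read 9.42 and 9.69 untreated and 10.22 and 10.09 with scrambled, and rose 1.52-fold (adjusted p = 0.0157), with its second probe at 0.59 (adjusted p = 0.0405). HNRNPA3 rose 1.73-fold, to 9.37 and 9.12 (adjusted p = 0.0132), and HNRNPUL2, a paralogue of HNRNPU, rose 1.42-fold (adjusted p = 0.0465). SNRPD3, an Sm ring protein, rose from 6.96 and 6.86 to 7.67 and 7.62 (1.66-fold; adjusted p = 0.0127). The scrambled arrays of these 4 genes all lay above the untreated arrays. SF3B3 rose 1.56-fold (adjusted p = 0.0177) and U2AF2 1.32-fold, from 11.29 and 11.30 to 11.72 and 11.68 (adjusted p = 0.0474), with its second probe higher by 1.17 (adjusted p = 0.00238). For HNRNPM, whose probe used read -0.23 without passing, the second probe rose by 0.74 (adjusted p = 0.0424), so its direction is unsettled. Second probes of SF3B1 (0.79, limma adjusted p = 0.00592) and SNRPB2 (0.49, adjusted p = 0.0348) passed higher. The probes used for these genes did not pass (0.30 and 0.15). The second SRSF5 probe passed lower (-0.56, adjusted p = 0.0231), while the probe used read -0.43 (adjusted p = 0.087).

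SRSF4, SRSF11 and TRA2B passed higher in scrambled and in Y15 cells alike, but both comparisons use the same untreated arrays. Their log2 fold changes were 0.64 with scrambled and 0.74 with Y15 for SRSF4, 0.63 and 0.59 for SRSF11, and 0.63 and 0.44 for TRA2B. HNRNPA3 passed in opposite directions against these untreated arrays, higher with scrambled (0.79) and lower with Y15 (-0.63). The comparison also shares its scrambled arrays with that of HAS3 siRNA.

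The count of 10 depends on single arrays. It fell without any 1 of the 4 arrays compared and rose without Y15 replicate 1. The share of all genes passing moved the same way, so the dependence is not particular to the members. With 1 of the 4 arrays compared left out, the members' median log2 fold change lay between 0.15 and 0.23. Median centring over all probes, which moved the median of all genes to -0.15, left 1. The share of all genes passing was then 9.72%, in place of 19.5%. SRSF4 was lost without scrambled replicate 1 (adjusted p = 0.105), HNRNPA3 without untreated replicate 2 (adjusted p = 0.0846) or without scrambled replicate 1 (adjusted p = 0.125) and TRA2B without untreated replicate 1 (adjusted p = 0.12) or without scrambled replicate 1 (adjusted p = 0.177). HNRNPC was lost without untreated replicate 1, scrambled replicate 1 or scrambled replicate 2 (adjusted p from 0.057 to 0.134). SNRPD3, SF3B3 and SRSF11 were each lost without any 1 of the 4 arrays compared, with adjusted p from 0.0529 to 0.208. HNRNPUL2 was lost without untreated replicate 1, untreated replicate 2, HAS3 siRNA replicate 2, scrambled replicate 1 or scrambled replicate 2 (adjusted p from 0.0519 to 0.215), and U2AF2 without untreated replicate 1, untreated replicate 2, HAS3 siRNA replicate 1, HAS3 siRNA replicate 2, scrambled replicate 1 or scrambled replicate 2 (adjusted p from 0.0656 to 0.228). Among the settings that kept every array of the comparison, centring on the detected probes lost HNRNPUL2 (adjusted p = 0.0641) and SRSF11 (adjusted p = 0.0638), and no detection filter lost the same pair (adjusted p = 0.0774 and 0.0968). Cyclic loess lost HNRNPUL2 (adjusted p = 0.0544) and U2AF2 (adjusted p = 0.0716), the 4 arrays alone U2AF2 (adjusted p = 0.052), and the use of second probes HNRNPUL2 (adjusted p = 0.0509).

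**Figure D4:**
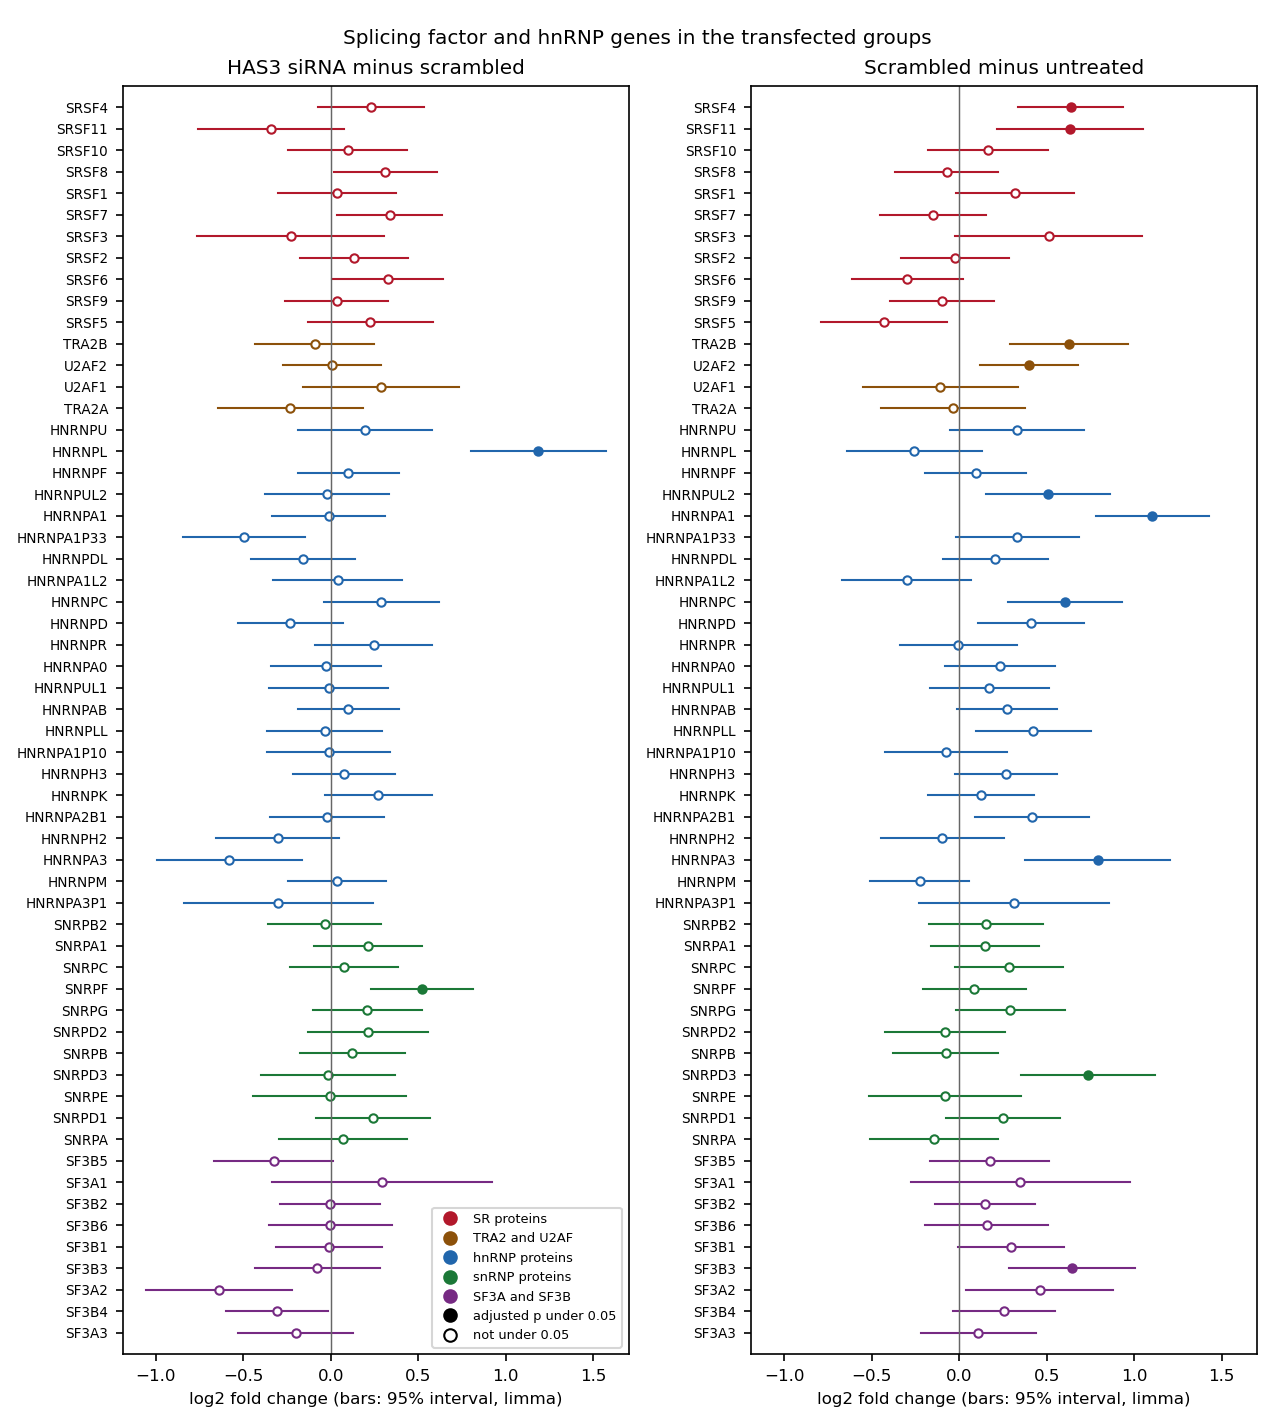
Log2 fold change of each member gene (horizontal axes) with 95% intervals from limma, for HAS3 siRNA minus scrambled at left and scrambled minus untreated at right, in the gene order of the Y15 plot; filled points passed at an adjusted p under 0.05 (n = 2 arrays per group). At left only HNRNPL and SNRPF are filled. At right 10 points are filled, all above 0. When arrays are centred on the median of all probes, 1 of the 10 remains called, and 9.72% of all genes pass.

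Whether Y15 and HAS3 siRNA differ in their effects was tested directly, as the HAS3 siRNA effect minus the Y15 effect, which share no arrays. At 11 of 58 members (19%) the effects differed, 7 with the higher effect under HAS3 siRNA and 4 with the higher under Y15, where 30.8% of all genes tested passed (17% and 13.8%). The split was 10 to 0 with centring over all probes and 1 to 11 with centring on the detected probes. SRSF5 differed by 1.29 ± 0.23 on the log2 scale (SE; adjusted p = 0.00163): it fell with Y15 and had 0.23 ± 0.16 with HAS3 siRNA. This difference held with any 1 array left out and under all 11 settings that kept all 8 arrays. SF3B5 differed by -0.94 ± 0.22 (adjusted p = 0.00773): it rose with Y15 and had -0.32 ± 0.16 with HAS3 siRNA. It held with any 1 array left out but not with median centring over all probes (adjusted p = 0.273).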

How the data were processed

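Biotin-labelled cRNA from SW620 total RNA was hybridised to Illumina bead arrays, per the labels' protocols, which speak of frozen tissue although the samples are a cell line. The deposited non-normalized table gives a linear intensity for each of 24526 probes on 8 arrays. Beside it stands a detection p-value, per the file headers. The submitters' processing notes name GenomeStudio, with no version or settings given in the sources used here. The deposited series matrix holds log2 values, which equal the log2 of those intensities after quantile normalization to within 5e-09. Its column medians were 5.86 and it was used as an alternative.

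Background was corrected with limma 3.58.1 (R 4.3.3; nec with detection p-values, offset 16), followed by quantile normalization and log2. Kept were probes that 2 or more arrays detected at a p-value under 0.05 (14631, of which 13239 were named through the platform annotation, updated with RefSeq symbols). Each of 10856 genes was read by its brightest kept probe on average, and 14 members had more than 1 kept probe. The model, lmFit with eBayes over all 8 arrays, had 4 group means (4 residual and 11.8 total degrees of freedom), with Benjamini-Hochberg adjustment over all genes. All adjusted p-values are from limma, and with 2 arrays per group the number of arrays limits the precision. On data simulated for the Y15 comparison, 200 of 10856 genes were changed. Recovered were 72% of 100 genes changed by 1 on the log2 scale and 9% of 100 changed by 0.5. In all 3 unchanged genes were called. With Y15 41.8% of all genes passed, so these shares do not carry over to the data.

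The members, gene groups and the rule for naming genes were chosen with earlier results of these data known, so no list is tested. Named were TRA2A, TRA2B, U2AF1 and U2AF2, in each comparison up to 4 called members of smallest p per family without overlap between the groups, the brightest and dimmest member of each family, members with a second probe called the other way, and up to 2 called genes per direction-blind list of other splicing genes. HNRNPA2B1, HNRNPH2, HNRNPF, SRSF6 and other members outside this rule were named after their values were seen. Alternatives were the series matrix, raw intensities without background correction, normexp at an offset of 50, cyclic loess, median centring, all probes whether detected or not, probes detected at 0.01 on 8 of 8 arrays, the mean of probes, the second probe, the replicate number as a block, the 4 arrays of a comparison alone, and each array left out. Median centring on the kept probes was added after seeing the data. Replicate numbers were not taken to pair samples, since the labels do not say so and each comparison holds 2 numbers. Promoters were read from RefSeq's table for GRCh38.p14; protein and probe sequences were not used here.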

Additional observations from a re-analysis of the deposited data

Results flagged for a closer look

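The effect of HAS3 siRNA differed from that of Y15 at 11 members, tested as HAS3 siRNA minus scrambled less Y15 minus untreated on the log2 scale by limma (n = 2 arrays per group). In the SR family SRSF5 differed by 1.29, with effects of 0.23 for HAS3 siRNA and -1.06 for Y15 (adjusted p = 0.00163). SRSF6 differed by 0.76 (0.33 and -0.44), SRSF7 by 0.64 (0.34 and -0.31) and SRSF9 by 0.60 (0.03 and -0.57). SRSF11 differed the other way, by -0.93 (-0.34 and 0.59). Among hnRNP genes HNRNPM differed by 0.70 (0.04 and -0.67), HNRNPL by 0.74 (1.19 and 0.44) and HNRNPK, which binds runs of cytidine, by 0.63 (0.27 and -0.36). SF3B5 differed by -0.94 (-0.32 and 0.61), SF3A2 by -0.82 (-0.64 and 0.19) and SNRPB2 by -0.62 (-0.03 and 0.59).

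Only SRSF5 and SF3B5 of these 11 kept an adjusted p under 0.05 with each of the 8 arrays left out in turn. SRSF6 was lost without untreated replicate 2, HAS3 siRNA replicate 2 or scrambled replicate 1 (adjusted p from 0.0525 to 0.0725), SRSF11 without untreated replicate 1, HAS3 siRNA replicate 1 or scrambled replicate 2 (adjusted p from 0.0788 to 0.0914), and HNRNPM without HAS3 siRNA replicate 2 (adjusted p = 0.0522) or without scrambled replicate 1 (adjusted p = 0.0551). SRSF7 was lost without untreated replicate 2, HAS3 siRNA replicate 1, HAS3 siRNA replicate 2, scrambled replicate 1 or scrambled replicate 2 (adjusted p from 0.054 to 0.1). SRSF9 was lost without untreated replicate 1, untreated replicate 2, Y15 replicate 2, HAS3 siRNA replicate 2, scrambled replicate 1 or scrambled replicate 2 (adjusted p from 0.0596 to 0.119). HNRNPK was lost without untreated replicate 1, Y15 replicate 2, HAS3 siRNA replicate 1, HAS3 siRNA replicate 2, scrambled replicate 1 or scrambled replicate 2 (adjusted p from 0.056 to 0.114), and HNRNPL without untreated replicate 1, Y15 replicate 2, HAS3 siRNA replicate 1, HAS3 siRNA replicate 2, scrambled replicate 1 or scrambled replicate 2 (adjusted p from 0.0936 to 0.145). SF3A2 was lost without untreated replicate 1, untreated replicate 2, Y15 replicate 2, HAS3 siRNA replicate 1, HAS3 siRNA replicate 2, scrambled replicate 1 or scrambled replicate 2 (adjusted p from 0.0525 to 0.139). SNRPB2 was lost without untreated replicate 2, Y15 replicate 1, HAS3 siRNA replicate 1, HAS3 siRNA replicate 2, scrambled replicate 1 or scrambled replicate 2 (adjusted p from 0.0668 to 0.13). With median centring over all probes HNRNPM (adjusted p = 0.0631), SRSF9 (adjusted p = 0.0857), SF3B5, SF3A2, SNRPB2 and SRSF11 (adjusted p from 0.273 to 0.697) were lost. With centring on the kept probes HNRNPL (adjusted p = 0.0667), SRSF7 (adjusted p = 0.0858), SRSF6 (adjusted p = 0.169), HNRNPK (adjusted p = 0.22), HNRNPM (adjusted p = 0.649) and SRSF9 (adjusted p = 0.802) were. No detection filter lost SRSF11, HNRNPL and SF3A2 (adjusted p from 0.0661 to 0.0956), cyclic loess lost HNRNPL (adjusted p = 0.0723), and the mean of probes and the second probe lost HNRNPM (adjusted p = 0.447 and 0.612).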

How the results depend on the processing

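Counts of members called moved by over 1.5 times in these settings, and the share of all genes called moved as well. With Y15 (19 called) the fit of the 4 arrays alone gave 12, and leaving out each array gave 12 (untreated replicate 1) to 18. With HAS3 siRNA (2 called) the count was 5 without background correction, with the series matrix values and in the fit of 4 arrays, 4 with the replicate block, and 1 with either median centring and with cyclic loess; leaving out each array gave 1 to 4. For scrambled minus untreated (10 called) it was 1 with median centring over all probes, and 1 to 15 over the leave-outs. For the difference of effects (11 called) it was 3 to 14 over the leave-outs. The replicate block otherwise gave 22, 12 and 12 calls for Y15, scrambled and the difference; the correlation of deviations between samples of the same number was 0.274 for untreated and Y15, 0.0416 for scrambled and HAS3 siRNA, and -0.07 for untreated and scrambled, and nothing in the labels pairs them.

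Directions turned as follows (log2 fold changes). With Y15, HNRNPA2B1 read 0.0263 with centring on the kept probes, HNRNPF -0.14 and SF3B6 -0.0022 with median centring over all probes, and U2AF2 0.77 by its second probe. HNRNPU lay between -1.13 and 0.66 over the leave-outs, reading -0.28 by the mean of its probes, -1.10 by its second, and -1.09 and -1.13 without Y15 replicate 1 and 2, where the second probe became the brighter. HNRNPM turned to -0.24 by its second probe in the difference of effects. The cause of the other turns was not tested. No other gene called in a comparison changed sign under the alternatives run, though calls were lost. Of the 19 calls with Y15, 12 were lost or turned with median centring over all probes, 7 on the kept probes, 7 in the fit of 4 arrays, 6 with no detection filter, 2 with cyclic loess, 2 by second probes and 1 by the mean of probes. The limits are 2 arrays per group and dim probes near background (SRSF3, SF3A1, SNRPE and, with Y15, HNRNPA3P1). Changes of 0.5 were mostly missed in the simulation, but it changed only 200 of 10856 genes. That share does not carry over to the Y15 comparison.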
